A study of Mus musculus with 2 samples.

Results

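The Mir26 family of the mouse consists of 3 microRNA genes, Mir26b, Mir26a-1 and Mir26a-2. They were picked by their gene identifiers in GENCODE M21 from the 2202 microRNA genes listed, many of which had no count. The family was chosen with its counts known, so its levels are described here and not tested. The counts come from small RNA sequencing of whole heart of male B6CASTF1/J mice, an F1 hybrid strain, at 2 months of age, with no treatment and no second tissue in the labels. The 2 libraries form 1 group, and the labels number them as biological replicates from differently numbered males but attach the same donor identifier to both, so any spread between them may be partly technical. The known heart muscle genes checked as markers, Mir208a, Mir208b, Mir499 and the copies of Mir1a and Mir133a, all had counts in both libraries.

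MicroRNAs are short RNAs cut from a hairpin precursor, and the arm loaded into Argonaute pairs with target messages mainly through its seed, bases 2 to 8. The miR-26 genes lie within the genes of small phosphatases that act on the C-terminal domain of RNA polymerase II, Ctdsp1, Ctdsp2 and Ctdspl, and their 5p arm is known as the main product. Messages known to be repressed by miR-26 include that of the polycomb methyltransferase Ezh2, and in heart and vessels the family has been studied in hypertrophy and in endothelial growth.

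The mature sequences are shown first because they set which reads can be told apart between the 3 genes. They were taken from RefSeq on GRCm38.p6, the assembly also called mm10, and all 3 genes matched. Capitals mark the seed.
mmu-miR-26b-5p: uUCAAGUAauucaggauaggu
mmu-miR-26a-5p: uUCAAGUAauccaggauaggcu
mmu-miR-26b-3p: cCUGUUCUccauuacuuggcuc
mmu-miR-26a-1-3p: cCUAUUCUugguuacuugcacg
mmu-miR-26a-2-3p: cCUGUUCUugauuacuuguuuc

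The 5p arms of all 3 genes carried the seed UCAAGUA. Among 1738 mature entries of the RefSeq table, these 3 were the only ones with it. That table held 1005 hairpins against the 2202 genes counted, so genes without an entry were not searched for the seed. mmu-miR-26a-5p was the same 22 bases in Mir26a-1 and Mir26a-2, whereas mmu-miR-26b-5p is 21 bases long and matched it at 19 of 21 positions. Counted from the 5′ end and written from mmu-miR-26a-5p to mmu-miR-26b-5p, the substitutions were C11U and C21U, both outside the seed. The 3p arms differed in every pair of genes. The 3p arms of Mir26b and Mir26a-2 shared the seed CUGUUCU and were identical at 18 of 22 positions, while that of Mir26a-1 had the seed CUAUUCU and matched Mir26a-2 at 16 and Mir26b at 14 of 22.

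The hairpins show where the copies are alike. Capitals mark the 5p and 3p mature arms.
Mir26b: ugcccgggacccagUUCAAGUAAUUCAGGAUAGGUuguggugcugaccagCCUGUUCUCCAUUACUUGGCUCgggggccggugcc
Mir26a-1: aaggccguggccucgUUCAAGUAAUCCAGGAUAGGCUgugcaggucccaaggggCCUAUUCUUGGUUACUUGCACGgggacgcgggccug
Mir26a-2: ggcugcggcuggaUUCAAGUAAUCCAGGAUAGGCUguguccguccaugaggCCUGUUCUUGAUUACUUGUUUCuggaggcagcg

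Mir26a-1 and Mir26a-2 shared 1 stretch of 25 bases, which starts at the first base of the 5p arm and runs past its last base. Of the windows of 20 bases, 6 of 71 in Mir26a-1 and 6 of 65 in Mir26a-2 also occurred in the other copy, searched on either strand among the hairpins of all 2202 genes. In Mir26b, none of 66 windows occurred at another microRNA gene, and its longest shared stretch was 12 bases. Reads mapped to several places are tallied in a row of their own and enter no gene. They made up 48.0% of the reads in replicate 1 and 46.4% in replicate 2, and the files do not divide them by gene. A read that lies within the 25 shared bases, as any whole mmu-miR-26a-5p does, has a place at both copies, so the counts of Mir26a-1 and Mir26a-2 are those of other reads from the hairpins. Counts of Mir26b, whose mature arms were each found at 1 microRNA locus, carry no such limit among the hairpins searched, and the levels of miR-26a and miR-26b in the tissue cannot be ranked from them.

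**Figure D1:**
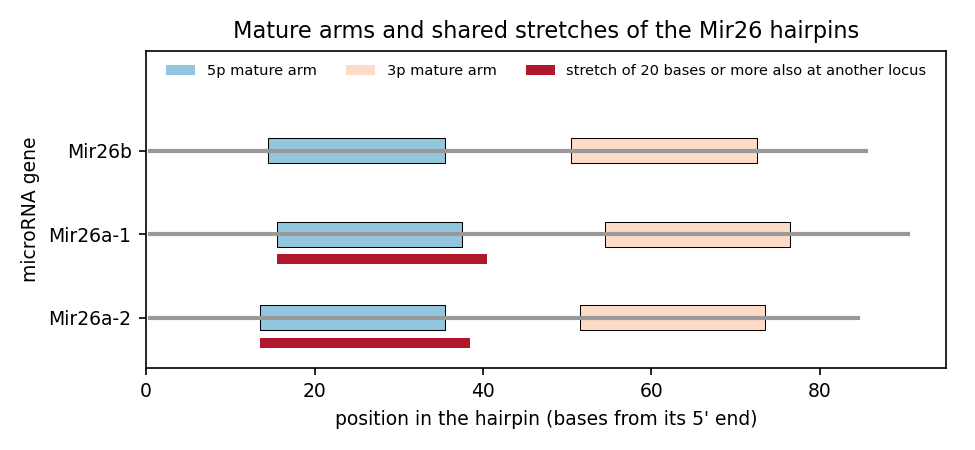
Position along each Mir26 hairpin in bases from its 5′ end (x axis) for the 3 genes (y axis); boxes are the mature arms and red bars are stretches of at least 20 bases that also lie at another microRNA locus. The red bar of 25 bases covers the whole 5p arm in Mir26a-1 and Mir26a-2, and Mir26b has none.

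All 3 hairpins lie on the plus strand in an intron of the longest annotated transcript of their host. Mir26b (ENSMUSG00000065468.1) is at chr1:74394310-74394394 in intron 4 of 6 of Ctdsp1, which codes for small C-terminal domain phosphatase 1. That intron is 564 bases long, and the hairpin lies 234 bases from the exon upstream and 245 from the exon downstream. Mir26a-1 (ENSMUSG00000065513.1) is at chr9:119031796-119031885 in intron 5 of 7 of Ctdspl, the host with the longest span, 117546 bases against 5777 for Ctdsp1. Mir26a-2 (ENSMUSG00000065430.1) is at chr10:126995530-126995613 in intron 5 of 7 of Ctdsp2. Its last base is also the first exonic base of 2 shorter annotated Ctdsp2 transcripts, an overlap of 1 base. Coordinates are those of mm10. The files hold counts of microRNA genes only, so no level of a host gene was measured.

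By reads with a single place, Mir26b was among the most counted microRNA genes of the heart, and the Mir26a copies were counted at a small fraction of its level. Levels are given as CPM, counts per 1000000 counts of all microRNA genes on the strand of the gene, of which there were 3650782 in replicate 1 and 3810675 in replicate 2. Mir26b had 130633 counts in replicate 1 and 79694 in replicate 2, or 35782 and 20913 CPM. In replicate 1 it held 3.58% of the microRNA gene counts, with an exact 95% interval after Clopper and Pearson of 3.56 to 3.60. In replicate 2 it held 2.09%, with an interval of 2.08 to 2.11. These intervals, and those that follow, cover counting error only, since the reads were not resolved to molecules. Mir26b stood at place 10 of 2202 genes in replicate 1 and at place 14 in replicate 2. Of the 2202, 634 had a count in replicate 1 and 627 in replicate 2. These shares and places leave out reads with several places, so they do not rank the microRNAs by their abundance in the tissue.

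Mir26a-2, in the Ctdsp2 intron, had 260 counts in replicate 1 and 157 in replicate 2, or 71.2 CPM (interval 62.8 to 80.4) and 41.2 CPM (35.0 to 48.2). Mir26a-1, in the Ctdspl intron, had 261 counts in replicate 1 and 11 in replicate 2, or 71.5 CPM (63.1 to 80.7) and 2.89 CPM (1.44 to 5.16). In replicate 1 the counts of the copies differed by 1, and in replicate 2 Mir26a-1 was the lower copy by far. Means were 28348 CPM ± 10514 for Mir26b, 37.2 CPM ± 48.5 for Mir26a-1 and 56.2 CPM ± 21.2 for Mir26a-2 (SD, n = 2 each). By these means the genes took places 12, 192 and 166. The copies were not separated by their spread, while each library's count of Mir26b lay above each count of the copies. No read on the opposite strand was counted for any of the 3 genes in either library.

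**Figure D2:**
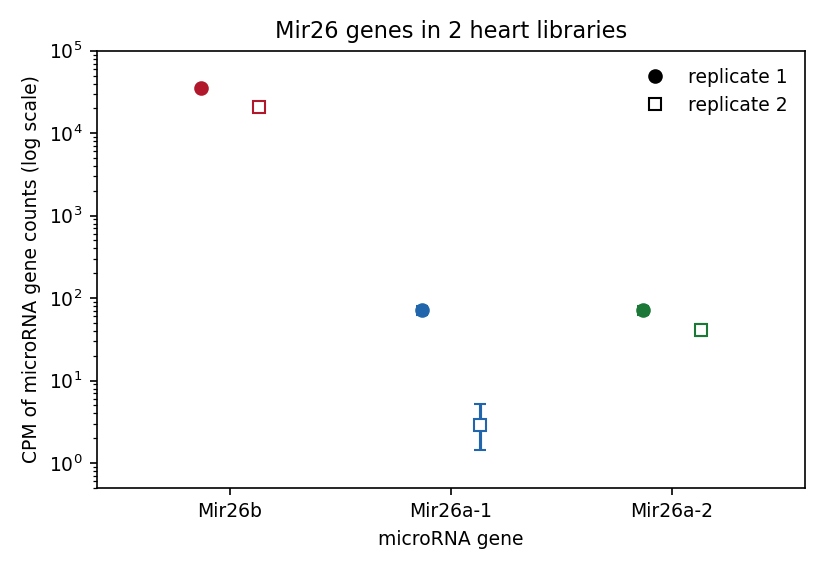
CPM on a log axis (y axis) of the 3 Mir26 genes (x axis) in each heart library, filled circles for replicate 1 and open squares for replicate 2, with exact 95% counting intervals (smaller than most symbols). Mir26b lies at 35782 and 20913 CPM, and Mir26a-1 falls below 10 CPM in replicate 2.

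Mir26b took up nearly the whole count of the family. It held 99.6% of the family's 131154 counts in replicate 1 and 99.8% of 79862 in replicate 2. Set against the sum of the Mir26a copies, Mir26b had 251 times their counts in replicate 1 (interval 230 to 274) and 474 times in replicate 2 (408 to 555). On the log2 scale, with 0.5 CPM added to each side, this was 7.96 in replicate 1 and 8.87 in replicate 2, a mean of 8.42 ± 0.64 (SD, n = 2). With 2 libraries, the lowest two-sided p that flipping the signs could reach is 0.5, so this ratio was given no test. Against each copy, a split made after the values were seen, Mir26b had 502 times the counts of Mir26a-2 in replicate 1 (445 to 570) and 508 times in replicate 2 (434 to 597). Against Mir26a-1 it had 501 times the counts in replicate 1 (443 to 567) and 7245 in replicate 2 (4049 to 14514). The ratio of Mir26b to Mir26a-2 was thus nearly the same in the 2 libraries, and the difference between 251 and 474 came from the counts of Mir26a-1.

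Other families with 2 copies and single-locus relatives, named in the plot of these ratios, gave a scale for this ratio. In 15 such families, the mean CPM of the single-locus relatives over the summed CPM of the copies had a median log2 ratio of 2.11, with a range from -5.73 to 6.72. The relatives not named there are Mirlet7b, Mirlet7d, Mirlet7e, Mirlet7g and Mirlet7i for Mirlet7a, and Mir30a, Mir30b, Mir30d and Mir30e for Mir30c. The lists of relatives are not complete. Mir98, at a mean of 2000 CPM, was not taken for Mirlet7a. Nor were Mir195a and Mir497, at means of 1352 and 1290 CPM, taken for Mir16. Each was below the mean of the relatives used in its family. The relatives were above the copies in both libraries in 9 families and below them in both in 3, and the order differed between the libraries in 3. No lowest count was set for this list, and some ratios rest on few counts. In replicates 1 and 2 the summed copies had 6 and 5 counts for Mir135a, 8 and 3 for Mir19b, and 3 and 18 for Mir196a. An identical mature arm was found in both copies for 12 of the 15 families. For Mir1a and Mir133a the comparison of arms gave no value, and for Mirlet7a the entries used held no identical pair. These families may still lose reads that map to several places, and no ratio was adjusted for such reads. The Mir26 ratio of 8.42 was above each of the 15. The nearest family was miR-29, known for its antifibrotic role in the heart, at 6.72 ± 0.20, with Mir29a and Mir29c set against Mir29b-1 and Mir29b-2. Mir107 over Mir103-1 and Mir103-2, which lie in introns of the pantothenate kinase genes Pank1, Pank3 and Pank2, followed at 5.84 ± 0.31 (SD, n = 2 each). At the other end, Mir92b was far below the summed Mir92-1 and Mir92-2, at -5.73 ± 0.27. The list was drawn up with part of these counts known, and no test was made of it.

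**Figure D3:**
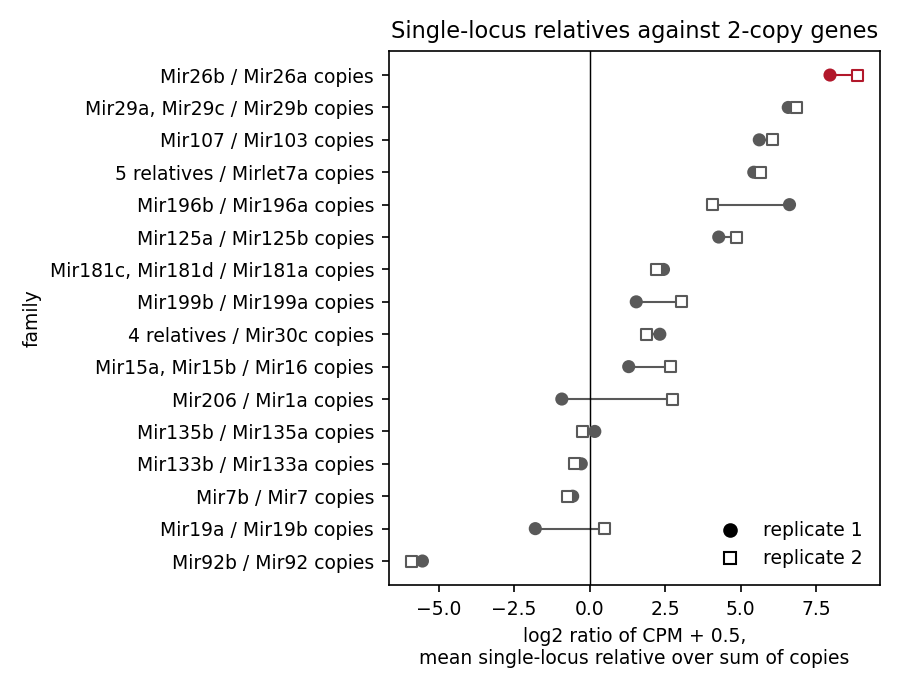
Log2 ratio of CPM + 0.5, mean of the single-locus relatives over the sum of the copies (x axis), for 16 families (y axis), filled circles for replicate 1 and open squares for replicate 2. The Mir26 family, in red at the top, lies at 7.96 in replicate 1 and 8.87 in replicate 2, above the other 15 families in both libraries.

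Each of the 3 genes had a higher CPM in replicate 1 than in replicate 2. Mir26b was 1.71 times higher in replicate 1 (interval 1.70 to 1.73) and Mir26a-2 1.73 times higher (1.41 to 2.12), log2 ratios of 0.77 and 0.78 after adding 0.5 CPM. Mir26a-1 was 24.8 times higher in replicate 1 (13.6 to 50.2), a log2 ratio of 4.41. Of the 257 genes with a mean of at least 10 CPM, 21.4% were more than 2-fold apart between the libraries, 9.73% higher in replicate 1 and 11.7% higher in replicate 2. Of the 3 Mir26 genes, only Mir26a-1 passed 2-fold. The median absolute log2 ratio of the 257 genes was 0.45, and 82 of them had a larger one than Mir26b, 80 a larger one than Mir26a-2 and 1 a larger one than Mir26a-1. Mir26a-1 and the gene past it had means of at least 10 CPM only through replicate 1, where they were high, so the filter itself favours large ratios among low genes and the place of Mir26a-1 is a description. Of the 337 genes with at least 2 CPM in each library, 103 had a larger absolute ratio than Mir26b, 101 a larger one than Mir26a-2 and 0 a larger one than Mir26a-1, and the gene past it was not among them. Differences of the size seen for Mir26b and Mir26a-2 were thus common between these libraries.

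The gene past Mir26a-1 was Mir9-3, a copy of the neuronal miR-9, with 101 counts in replicate 1 and 1 in replicate 2, a ratio of 105 (interval 18.5 to 4205). Next below Mir26a-1 among the genes higher in replicate 1 were Mir674, with 13642 and 3031 counts in replicates 1 and 2, a log2 ratio of 2.23, and Gm49347, with 72 and 15 counts, at 2.19. Among other pairs of copies, the log2 ratio of the first copy to the second also moved between the libraries. In the 11 other families with at least 10 counts per copy over both libraries, it moved by 0.05 to 2.22, with a median of 0.24. For Mir26a-1 over Mir26a-2 it was 0.0055 in replicate 1 and -3.62 in replicate 2, a move of 3.63. This comparison was chosen after the counts of Mir26a-1 were seen.

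**Figure D4:**
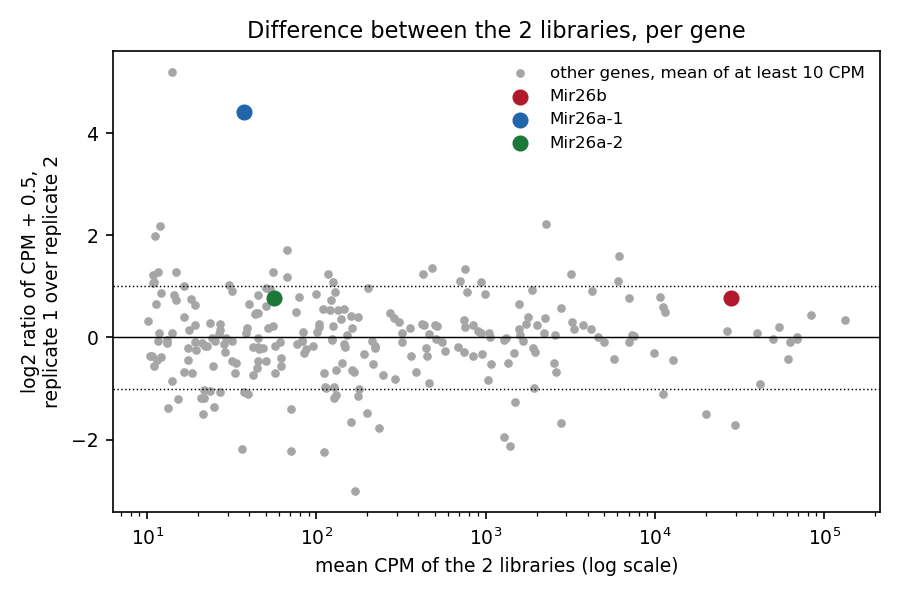
Log2 ratio of CPM + 0.5, replicate 1 over replicate 2 (y axis), against the mean CPM on a log axis (x axis) for the 257 genes with a mean of at least 10 CPM; dotted lines mark 2-fold. Mir26b and Mir26a-2 lie near 0.8 among other genes, and Mir26a-1 at 4.41 stands above all but 1.

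Marker levels differed between the libraries as well. The 7 heart muscle genes had summed levels of 4032 and 6942 CPM in replicates 1 and 2. Most of this sum came from Mir208a, with 4851 and 16254 counts, and Mir499, with 9494 and 9553. The copies of Mir1a and Mir133a may lose reads with several places, and the highest of them, Mir1a-2, had 251 and 150 counts. The sum is therefore not a level of miR-1 or miR-133a. The endothelial pair Mir126a and Mir126b had summed levels of 52212 and 70229 CPM in replicates 1 and 2. The skeletal muscle genes Mir206 and Mir133b had a summed level of 43.0 CPM in replicate 1, against 308 in replicate 2. The smooth muscle genes Mir143 and Mir145a summed to 54611 and 53284 CPM, the 3 erythroid genes to 3222 and 2960 CPM, the 5 leukocyte genes to 10633 and 8667 CPM, and the liver gene Mir122 was at 142 and 97.9 CPM in replicates 1 and 2. The 5 leukocyte genes were each higher in replicate 1. Their log2 ratios of replicate 1 over replicate 2 ran from 0.16 for Mir155 to 1.35 for Mir142. The 257 genes with a mean of at least 10 CPM had a median log2 ratio of -0.02. Their median absolute log2 ratio was 0.45, and Mir155, Mir146 and Mir150, at 0.16, 0.17 and 0.25, were below it. Mir126a and Mir126b were both lower in replicate 1, at -0.43 and -1.63, the latter with 0 and 4 counts. Within the heart muscle, smooth muscle, erythroid and skeletal muscle lists the members did not all move one way. Of the heart muscle genes, Mir208a had a log2 ratio of replicate 1 over replicate 2 of -1.68, Mir499 one of 0.05 and Mir1a-2 one of 0.80. Of the smooth muscle genes, Mir143 was at -0.04 and Mir145a at 0.90, and of the erythroid genes, Mir451a was at 0.66, Mir144 at -0.21 and Mir486 at -0.52. The skeletal muscle sum followed Mir206 at -3.02, while Mir133b was at 0.18. Their part in the difference of the Mir26 genes was not tested. In a whole organ, fewer cells of a type and less RNA per cell cannot be told apart.

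Near Mir26b in the order of mean CPM stood Mirlet7d, Mir139 and Mir22 above it, at 41777 CPM ± 18205, 39880 CPM ± 1714 and 29551 CPM ± 22296, and Mir99a, Mir149 and Mir29a below it, at 26642 CPM ± 1617, 19956 CPM ± 13491 and 12872 CPM ± 2762 (SD, n = 2 each). Mir26b at 28348 CPM ± 10514 was separated by less than its own spread from Mir22, Mir99a and Mir149. In replicate 1, Mir139 was above Mir26b and Mir22 below it. In replicate 2, Mir139, Mir22, Mirlet7d, Mir99a and Mir149 were all above it. Among the genes with a mean of at least 1000 CPM, the ratio of replicate 1 to replicate 2 was nearest to that of Mir26b in Mir99b, Mir30d and Mir451a, at log2 ratios of 0.78, 0.80 and 0.66. This likeness is over 2 libraries.

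Residence in a protein-coding gene was common to many counted genes. On the strand and within the span of a protein-coding gene lay 969 of the 2202 microRNA genes. Of the 257 genes with a mean of at least 10 CPM, 120 lay so, a share near that over all genes. In neither library was a read on that strand counted for 529 of the 969. Over all 2202 genes, 722 had such a read in at least 1 library. Among the 969, Mir26b stood at place 7 by mean CPM, Mir26a-2 at 81 and Mir26a-1 at 91. None of the 3 had a well-counted microRNA gene as its neighbour. The nearest to Mir26b was Mir1928 on the opposite strand, 187690 bases away with no count, and the nearest to Mir26a-1 was Gm22008, 1032366 bases away with no count. The nearest to Mir26a-2 was Mir546, 2827 bases away, with 0 counts in replicate 1 and 1 in replicate 2. A count of 0 allows a level of 3 counts, which is 0.822 CPM for replicate 1 and 0.787 CPM for replicate 2, for reads with a single place.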

How the data were processed

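The authors deposited a file of raw read counts per microRNA gene for each library, holding 3 count columns (without strand, on the strand of the gene, on the opposite strand) and 4 rows that name no gene. Per the deposited text beside each file, assembly mm10 and GENCODE M21 were used, and the aligner and counter are not given in the sources used here. Those 4 rows, 64.8% of the reads in replicate 1 and 63.6% in replicate 2, were left out of the gene sums.

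All 2202 identifiers matched GENCODE M21. CPM was computed from the column on the strand of the gene. The members, lists and comparisons were chosen with earlier results of these data known. Named genes were the 3 members, the 3 genes on either side of Mir26b by mean CPM, the 3 nearest to it in replicate ratio, and the 3 with the largest ratio in the direction of Mir26a-1. No condition was compared, and no test was run. Ratios were log2 of CPM + 0.5. The calculation of ratios was checked on simulated counts. Alternatives used edgeR 4.0.16 (TMM) and DESeq2 1.42.0 (size factors) in R 4.3.3. Other steps used Python 3.11.15 and SciPy 1.17.1.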

Additional observations from a re-analysis of the deposited data

How the results depend on the processing

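Leaving out a replicate apart, 27 of 31 values under other settings stayed within the spread between replicates, the counting interval or 1.5 times the reported count. The spread of 2 libraries is wide, so staying within it says little of stability. The mean of Mir26b rose from 28348 to 36848 CPM in the column without strand, which still lay within its SD of 10514. Its counts were the same in that column, 130633 in replicate 1 and 79694 in replicate 2. The rise came from the lower sum over all genes there, 2790062 in replicate 1 and 2965399 in replicate 2. With 2 libraries, the value left when a replicate is dropped is that of the other library and says nothing of stability. Mir26b over the summed Mir26a copies lay between 7.96 and 8.87 on the log2 scale with each replicate left out. The order of the copies turned: the log2 ratio of Mir26a-1 over Mir26a-2 was -1.81 over both libraries, 0.0055 without replicate 2 and -3.62 without replicate 1. Without a replicate, Mir26b lay between 20913 and 35782 CPM, Mir26a-1 between 2.89 and 71.5 CPM, and Mir26a-2 between 41.2 and 71.2 CPM. The log2 ratio of replicate 1 over replicate 2 for Mir26b was 0.77, and 0.79 with DESeq2 size factors and 0.80 in the column without strand, both just past its narrow counting interval. The count of genes more than 2-fold apart was 55 of 257, and it was 27 of 146 at a mean of at least 100 CPM and 196 of 722 with no filter on low values, settings that change how many genes are compared. No paired analysis was possible because there is 1 group. Depth limits Mir26a-1 in replicate 2, where 11 counts leave 1.44 to 5.16 CPM. More depth would not separate reads that lie within the stretch shared by the Mir26a copies.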
